A study of Mus musculus with 8 samples.

Results

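The 8 libraries of stimulated mouse alveolar macrophages split along an axis that crossed genotype. Libraries 3, 4, 7 and 8 (here set B) stood apart from libraries 1, 2, 5 and 6 (set A), where libraries are numbered by their column in the count table. Set B held 2 Batf2-/- libraries (7 and 8) and 2 WT libraries (3 and 4), and set A held 2 Batf2-/- libraries (5 and 6) and 2 WT libraries (1 and 2), so all 8 of 8 libraries were compared, 4 against 4. The split was chosen from the measured values themselves: scores on the first principal component of log2 CPM, which held 42.5% of the variance, were 43.9 in library 4, 28.9 in library 8, 4.72 in library 3 and -1.85 in library 7, against -7.73, -16.2, -16.7 and -34.9 in libraries 2, 6, 1 and 5. Every value along the split is therefore a description with no test, and a count of genes beyond a limit had to be large. The columns carried no replicate label, and what set the libraries apart cannot be told from the labels.

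Alveolar macrophages are the resident phagocytes of the lung air spaces. The study asked how loss of BATF2, a basic leucine zipper transcription factor induced by interferon, affects their gene expression. All groups, Batf2-/- and WT alike, were primary cells treated with IFNg (interferon gamma, 10 ng/mL, 4 h) before a further 6 h in 20% K. pneumoniae supernatant, the medium of a lung-infecting bacterium, and no unstimulated cells were compared. Each library was made from cells pooled from 4 mice, with 16 mice per genotype, and the age, sex and strain background of the mice were not given in the labels used here. Batf2 had 0 counts in all 4 Batf2-/- libraries, against 138 to 189 CPM in WT libraries.

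Messenger RNA libraries measure the share of each transcript among all transcripts in a pool, so one large class of transcripts that takes more of a library leaves less for the others. Cytosolic ribosomal proteins form the ribosome together with ribosomal RNA, and their messenger RNAs are short and abundant. The respiratory chain of the mitochondrial inner membrane is built from subunits encoded in both the nucleus and the mitochondrial genome. The proteasome is the barrel-shaped protease that degrades ubiquitin-tagged proteins, and in interferon-treated macrophages it also supplies peptides for antigen presentation. These housekeeping programs are distinct from the inflammatory program of an activated macrophage, in which NF-kB drives cytokines and chemokines.

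Libraries 4 and 8 stood furthest from the others. Total counts were 31730041 to 39888022 in set B and 34987515 to 39686860 in set A, and 13516 to 13980 genes had at least 1 count in set B libraries, against 13615 to 14157 in set A libraries. Ribosomal protein genes took 4.84% and 4.90% of the counts in libraries 4 and 8, 3.53% and 3.70% in libraries 3 and 7 of the same set, and 2.86% to 3.01% in set A. All genes of the mitochondrial genome took 0.875% to 1.03% in set B and 0.948% to 1.52% in set A, so that the ranges overlapped. Xist, the RNA of the inactive X chromosome, stood at 29.5 and 27.03 CPM in libraries 3 and 7 of set B and at 25.8 and 38.4 CPM in libraries 1 and 5 of set A, and at no more than 0.0929 CPM in the other 4 libraries. Eif2s3y, a Y-linked translation factor gene, showed the reverse, with 53.5 and 66.3 CPM in libraries 4 and 8, 31.4 and 32.7 CPM in libraries 2 and 6, and at most 0.111 CPM elsewhere. The sex of the pools thus crossed the split as well, with 1 library of each kind in each set and genotype.

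The 3 promoter windows that follow belong to members of the ribosomal protein, respiratory chain and proteasome lists, which were the groups that stood highest in set B. They are shown because each list's members moved together, and each is the counted member with the largest difference among those whose first listed window held the motif searched, a choice made after the values were seen. The windows run 250 bases before to 50 bases after the start that RefSeq gives on GRCm38.p6. That start can differ from the gene coordinates printed below, as it does for Rpl41. Capitals mark the motif CTTTCC or its reverse complement GGAAAG.
Rpl41 (chr10:128549119-128549418, minus strand): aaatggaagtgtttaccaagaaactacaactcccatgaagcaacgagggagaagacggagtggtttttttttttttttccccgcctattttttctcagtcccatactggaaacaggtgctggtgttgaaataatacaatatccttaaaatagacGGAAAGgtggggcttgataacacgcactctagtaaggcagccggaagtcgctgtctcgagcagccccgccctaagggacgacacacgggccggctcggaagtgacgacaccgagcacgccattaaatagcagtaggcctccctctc
Ndufa4 (chr6:11907401-11907700, minus strand): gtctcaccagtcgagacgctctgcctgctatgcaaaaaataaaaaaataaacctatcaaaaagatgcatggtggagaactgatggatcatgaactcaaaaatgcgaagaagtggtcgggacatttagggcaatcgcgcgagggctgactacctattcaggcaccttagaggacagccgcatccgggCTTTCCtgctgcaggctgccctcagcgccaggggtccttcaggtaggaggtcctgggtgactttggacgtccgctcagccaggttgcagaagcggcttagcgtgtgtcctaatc
Psma3 (chr12:70974373-70974672, plus strand): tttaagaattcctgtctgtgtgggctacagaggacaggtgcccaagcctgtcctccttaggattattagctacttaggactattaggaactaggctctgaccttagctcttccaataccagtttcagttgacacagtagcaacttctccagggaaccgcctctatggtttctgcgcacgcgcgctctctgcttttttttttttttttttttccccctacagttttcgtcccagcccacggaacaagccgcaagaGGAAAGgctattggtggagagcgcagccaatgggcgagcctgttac

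CTTTCC is a short pyrimidine-rich run of the kind found at the starts of ribosomal protein transcripts. On either strand it was in a window of 50.9% of the 57 ribosomal protein genes that matched the table, of 77 tested, in 27.8% of 36 matched respiratory chain genes and in 28% of 25 matched proteasome genes, against 30.4% of the 8556 matched genes among all those tested. A match could lie anywhere in the window and on either strand, so it need not be at the start of a transcript. It is a string of letters, not a binding site.

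The list with the most counted members along the split was the cytosolic ribosome. All 77 of 77 tested ribosomal protein genes had a positive log2 difference of set B over set A, with a median of 0.63, against a median of -0.04 over all 11083 tested genes. A gene was counted when its fitted difference was at least 1.5-fold and all 4 libraries of one set lay beyond all 4 of the other. By that rule 744 genes were higher in set B (6.71%) and 160 were lower (1.44%), and since the split was chosen on these values nothing is read from the background. Of the ribosomal protein genes, 47 were counted as higher and none as lower.

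Rpl41 (GRCm38 chromosome 10, 128548114 to 128549305, minus strand), which encodes the shortest protein of the large subunit, had 731 and 1115 CPM in Batf2-/- libraries 7 and 8 and 657 and 1087 CPM in WT libraries 3 and 4 of set B, against 484 and 524 CPM in Batf2-/- libraries 5 and 6 and 440.5 and 498 CPM in WT libraries 1 and 2 of set A. The sets did not overlap, and libraries 8 and 4 were the highest in each genotype. Its means were 897 ± 237 CPM in set B and 486 ± 35.0 CPM in set A (SD, n = 4 each), a log2 difference of 0.88. The same order of libraries was found for Rps24 of the small subunit, with 661, 1067, 611 and 1049 CPM in libraries 7, 8, 3 and 4 and 459.6 to 487 CPM in set A. Rpl34 and Rps25 had log2 differences of 0.85 and 0.82. At the low end of the list, Rps2 differed by 0.14, with 992 to 1223 CPM in set B and 886 to 1087 CPM in set A, and its sets overlapped. Rpl4 differed by 0.23 with no overlap.

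In bulk pools, fewer cells of a type and less RNA per cell cannot be told apart. Without libraries 4 and 8 the median over the ribosomal list was 0.37, and 1 of 77 members was counted as higher. The difference between the other 2 libraries of set B and set A therefore kept its sign in the median and was smaller. Set B then held only pools with Xist (libraries 3 and 7), while set A still held both kinds. The sex of the pools was thus unbalanced in each comparison without libraries 4 and 8. Over all genes the counts without these libraries were 118 higher and 84 lower.

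**Figure D1:**
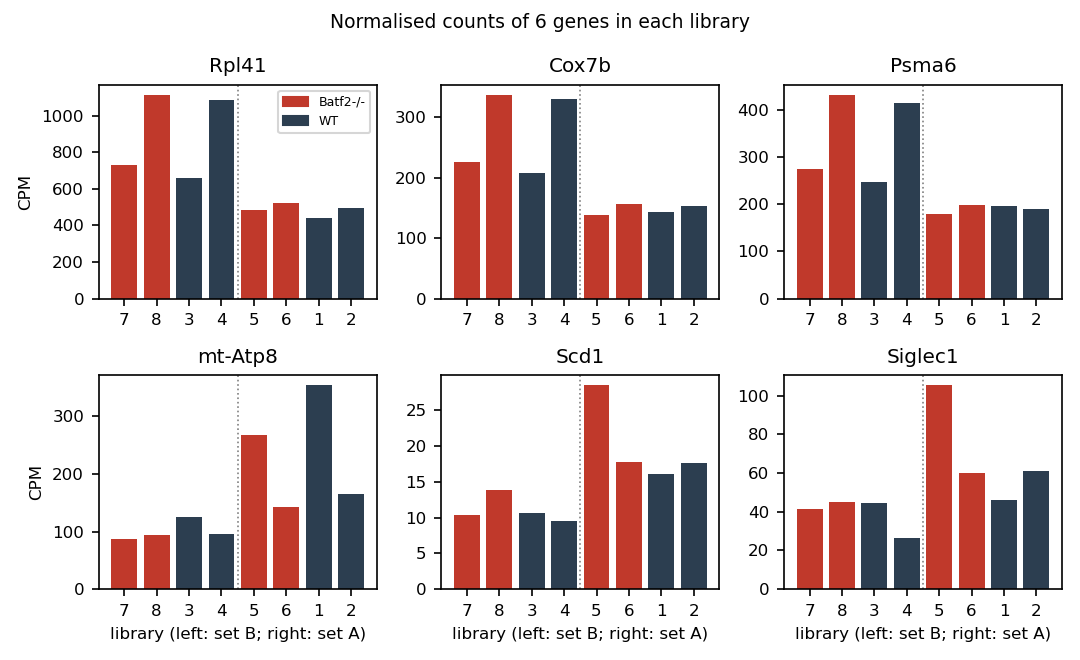
Normalised counts (CPM) in each of the 8 libraries for Rpl41, Cox7b and Psma6, which were higher in set B, and for mt-Atp8, Scd1 and Siglec1, which were lower. Set B is left of the dotted line and set A right of it, Batf2-/- bars are red and WT bars dark blue. Libraries 8 and 4 hold the 2 highest bars in each panel of the upper row, and for mt-Atp8 libraries 5 and 1 hold the 2 highest.

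Among counted genes whose mean log2 CPM was no lower than 2, ribosomal-protein-like copies had the largest positive differences. They are uncertain, because reads of near-identical copies can be shared. Rpl37rt (GRCm38 chromosome 5, 115102923 to 115110268, minus strand), a retrotransposed copy of Rpl37, had 28.8, 30.9, 26.9 and 35.0 CPM in libraries 7, 8, 3 and 4, against 17.1, 14.5, 3.98 and 11.1 CPM in libraries 5, 6, 1 and 2, a log2 difference of 1.47. The sets did not overlap, and library 1 was far below the rest of set A. Rpl37 itself differed by 0.55, which was short of the limit, with 198 to 282 CPM in set B and 154 to 171 CPM in set A. The predicted genes Gm2000 and Gm10131 followed with 1.26 and 1.01. Rps12 had the largest fitted difference of the ribosomal list, 2.07, but was not counted: it had 33.6, 52.8, 35.1 and 13.2 CPM in libraries 7, 8, 3 and 4 and 4.73, 2.90, 23.5 and 4.97 CPM in libraries 5, 6, 1 and 2, so library 1 lay above library 4.

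Nuclear subunits of the respiratory chain came next by the number of counted members, and the proteasome by the list median. Of 47 tested subunits 22 were counted as higher in set B and none as lower, with a median log2 difference of 0.50 and with 44 of 47 positive. Cox7b (GRCm38 chromosome X, 106015700 to 106022450, plus strand), a small subunit of cytochrome c oxidase, had 226, 337, 208 and 330 CPM in libraries 7, 8, 3 and 4, against 138, 156, 143 and 153 CPM in libraries 5, 6, 1 and 2. All 4 libraries of set B were above all 4 of set A, and the log2 difference was 0.90. Ndufa4, another small oxidase-associated subunit, differed by 0.86, and Ndufb9 of complex I by 0.85. Cox7a2, also of cytochrome c oxidase, differed by 0.80. Pet100 and Coa4, which take part in assembly of the oxidase, differed by 0.90 and 0.89.

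Not every subunit was higher. Sdha, the flavoprotein of succinate dehydrogenase, had 120, 110.5, 123 and 106 CPM in libraries 7, 8, 3 and 4, against 164, 139, 148 and 141 CPM in libraries 5, 6, 1 and 2, a log2 difference of -0.36 with no overlap. Uqcrc1, a core subunit of complex III, differed by -0.11, and Atp5d, of the ATP synthase stalk, by -0.05. Without libraries 4 and 8 the list median was 0.28 and no member was counted.

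Proteasome subunits were also higher in set B. Of 31 tested members 14 were counted as higher and none as lower, with a median of 0.54. For 29 members all set B libraries lay above all set A libraries, whatever the size of the difference. Over all tested genes 19.4% lay so, and 16.5% had all set B libraries below all set A libraries. Psma6 (GRCm38 chromosome 12, 55384222 to 55418454, plus strand), of the outer ring of the core particle, had 274, 434, 247 and 416 CPM in libraries 7, 8, 3 and 4, against 179, 199.9, 197 and 191 CPM in libraries 5, 6, 1 and 2. The log2 difference was 0.84, and libraries 8 and 4 were again highest. Psma3 and Psma5 of the same ring differed by 0.81 and 0.79, and Psmd14, the deubiquitinase of the regulatory lid, by 0.76. The 2 members that went the other way were Psmd3 (-0.29) and Psmd2 (-0.13), subunits of the regulatory particle, each with no overlap. The list median was 0.33 without libraries 4 and 8, with none counted.

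Mitochondrially encoded transcripts went against the nuclear subunits of the same complexes. The 13 protein genes of the mitochondrial genome had a median log2 difference of -0.64, and 5 were counted as lower and none as higher. The mt-Atp8 transcript (mitochondrial genome, 7766 to 7969, plus strand), which encodes a small subunit of ATP synthase, had 86.8, 94.4, 126 and 95.6 CPM in libraries 7, 8, 3 and 4, against 268, 142, 354 and 166 CPM in libraries 5, 6, 1 and 2. The sets did not overlap, and within set A libraries 1 and 5 were the high ones. Its means were 101 ± 17.2 CPM in set B and 232 ± 97.7 CPM in set A (SD, n = 4 each), a log2 difference of -1.20.

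The complex I genes mt-Nd5, mt-Nd2, mt-Nd4l and mt-Nd4 were the other counted members, at -0.81, -0.74, -0.69 and -0.64. For mt-Nd1 the difference was -0.70 and for mt-Atp6 -0.81, but their sets overlapped, since library 3 lay above library 6. Members differed among themselves. For mt-Co3 the difference was 0.21, with 2658, 3379, 2846 and 3997 CPM in libraries 7, 8, 3 and 4 and 2940, 2198, 3668 and 2350 CPM in libraries 5, 6, 1 and 2. For mt-Nd3 it was -0.07, for mt-Nd6 -0.06 and for mt-Co2 -0.37. Copies of mitochondrial sequence in the nuclear genome can share reads with these genes. Without libraries 4 and 8 the median was -0.48 and 2 members were counted.

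**Figure D2:**
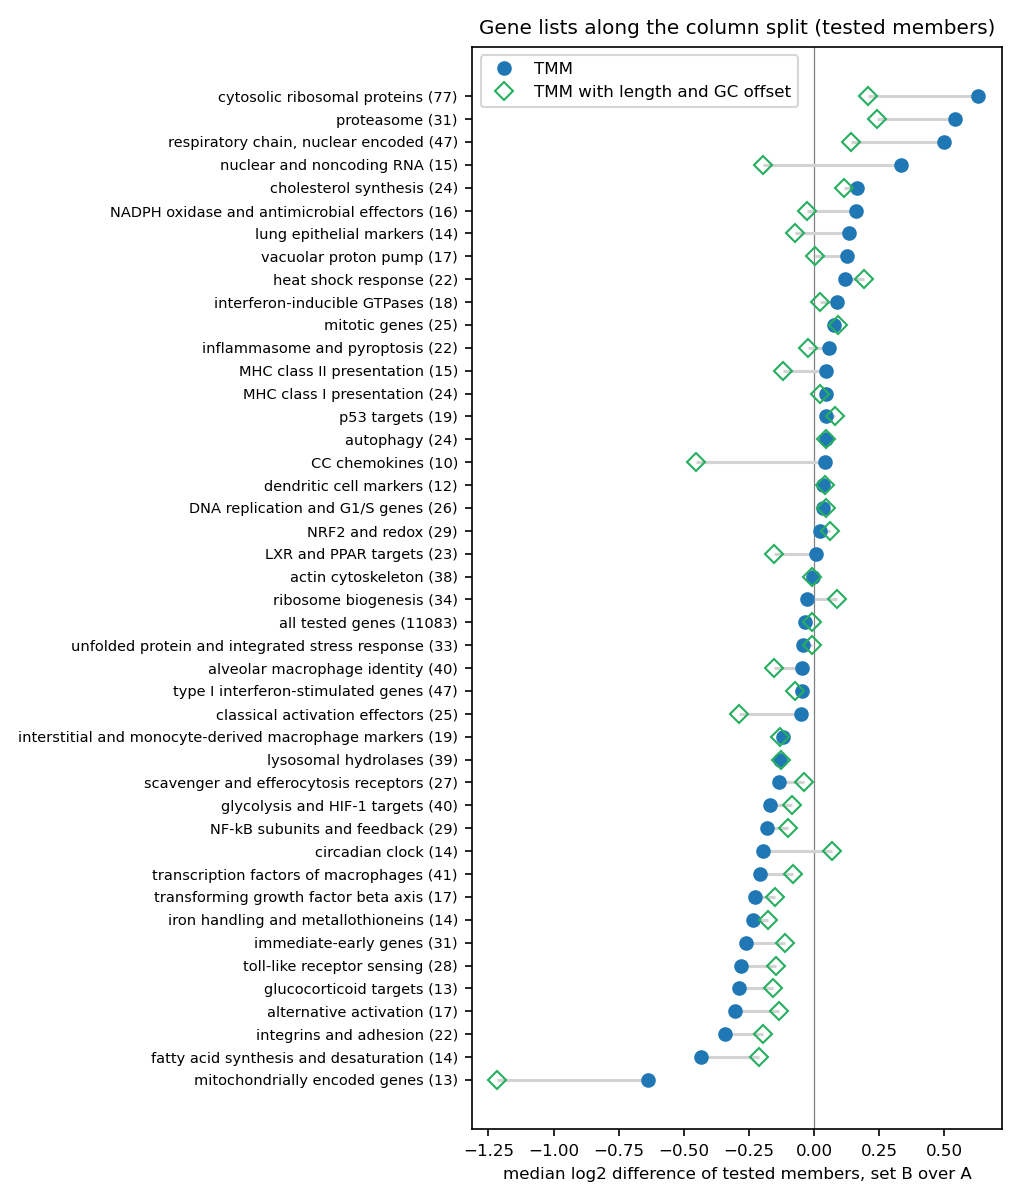
Median log2 difference of set B over set A (x axis) for each gene list with 10 or more tested members, whose number is in brackets, and for all 11083 tested genes. Filled circles are the TMM-scaled fit and open diamonds the fit with a length and GC offset. Ribosomal, proteasome and nuclear respiratory chain lists lie highest at 0.63, 0.54 and 0.50 and move to 0.21, 0.24 and 0.14 with the offset, while the mitochondrially encoded list moves further left, to -1.22.

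The other genes with the largest positive differences were of mixed role and short. Med31, a subunit of the Mediator complex, had 5.73, 8.71, 6.96 and 10.5 CPM in libraries 7, 8, 3 and 4 and 3.24 to 4.90 CPM in set A, a log2 difference of 0.98. Dpm1, the catalytic subunit of dolichol-phosphate mannose synthase, differed by 0.93. Ms4a7, a membrane protein of macrophages, differed by 0.91 with 34.0 to 55.2 CPM in set B and 22.1 to 27.5 CPM in set A. Sec61g, of the endoplasmic reticulum translocon, differed by 0.90 and Cebpzos by 0.89. Afp, the gene of alpha-fetoprotein, differed by 0.88. These and the ribosomal-like copies, Pet100, Cox7b and Coa4 are the 12 largest, with spliced lengths of 445 to 2063 bases and a median of 889.5 bases.

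The 12 largest negative differences, apart from 3 mitochondrial genes, were of transcripts longer than the all-gene median. Scd1 (GRCm38 chromosome 19, 44394455 to 44407879, minus strand), the stearoyl-CoA desaturase that makes monounsaturated fatty acids, had 10.4, 13.8, 10.6 and 9.50 CPM in libraries 7, 8, 3 and 4, against 28.5, 17.8, 16.2 and 17.6 CPM in libraries 5, 6, 1 and 2. The sets did not overlap, library 5 was the highest, and the log2 difference was -0.84. Siglec1, the sialic acid receptor CD169 of tissue macrophages, had 41.5, 44.8, 44.7 and 26.2 CPM in set B and 105, 60.1, 46.0 and 61.1 CPM in set A in the same order of libraries, a difference of -0.77. Abca2, a lipid transporter, differed by -0.82, and Ace, the angiotensin-converting enzyme, by -0.79. Gpr35, a G protein-coupled receptor, also differed by -0.79. Myo1d (an unconventional myosin) and Rhbdf1 (an inactive rhomboid) each differed by -0.72, B3gnt3 (a glycosyltransferase) and Slc41a1 (a magnesium transporter) each by -0.71. Lars2, the mitochondrial leucyl-tRNA synthetase, had a fitted difference of -1.001 but was not counted because its sets overlapped.

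Members next to the 1.5-fold limit differed little. Psmc3 and Emc8 lay just inside it on the higher side with a log2 difference of 0.59 each, and Ppib and Ndufa8 lay just outside it at 0.58 each. On the lower side Pigq and Tob2 lay just inside and Nfix and Sema6b just outside, at -0.59, -0.59, -0.58 and -0.58.

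Transcript length ordered the differences across genes. The counted higher genes had a median spliced length of 1085 bases and the counted lower genes 3942 bases (11070 genes with an annotated length, all-gene median 2636 bases). Split into quintiles by length, the median log2 difference of set B over set A was 0.40 in the shortest quintile (204 to 1478 bases), then 0.12, -0.05, -0.17 and -0.28 in the longest. In the shortest quintile 508 of 2214 genes were counted as higher and 7 as lower, and in the longest quintile 12 were higher and 65 lower. The values were nearly the same within each genotype: 0.41 in Batf2-/- and 0.40 in WT for the shortest quintile, and -0.28 in both for the longest.

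GC content showed a weaker gradient in the same fit. The medians over quintiles of transcript GC ran 0.18, 0.03, -0.03, -0.11 and -0.22 with rising GC. Across the 11070 genes, which share the 8 libraries and are not independent, the Spearman rank correlation of the difference was -0.53 with length and -0.30 with GC, and -0.46 and -0.25 without libraries 4 and 8. For the genotype difference (Batf2-/- over WT) the rank correlation with length was 0.11 and with GC 0.19. Split by mean expression, the median differences of the quintiles lay between -0.06 and 0.00.

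**Figure D3:**
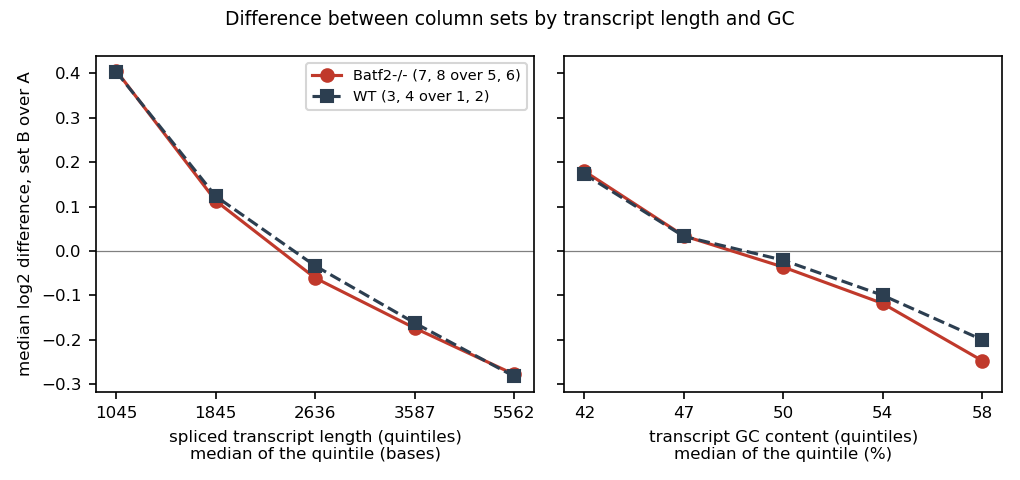
Median log2 difference of set B over set A (y axis) for quintiles of tested genes by spliced transcript length (left, median length of each quintile in bases) and by GC content (right, median percent). Red circles are Batf2-/- (libraries 7 and 8 over 5 and 6) and dark squares WT (libraries 3 and 4 over 1 and 2). Both genotypes fall together, from 0.41 and 0.40 in the shortest quintile to -0.28 in the longest.

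Seen by library, the length gradient was graded within set B. The median deviation of the shortest quintile from each gene's mean over libraries was 0.05 and 0.35 on the log2 CPM scale in libraries 7 and 8 and 0.01 and 0.39 in libraries 3 and 4, against -0.24, -0.17, -0.19 and -0.18 in libraries 5, 6, 1 and 2. The longest quintile showed the mirror image, at -0.03, -0.15, -0.02 and -0.34 in libraries 7, 8, 3 and 4 and 0.16, 0.16, 0.08 and 0.15 in libraries 5, 6, 1 and 2. Libraries 8 and 4 lay far from the zero line, libraries 7 and 3 close to it, and set A on the other side. The mean transcript length weighted by counts was 2585, 2452, 2598 and 2386 bases in libraries 7, 8, 3 and 4, against 2742, 2717, 2684 and 2712 bases in libraries 5, 6, 1 and 2.

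**Figure D4:**
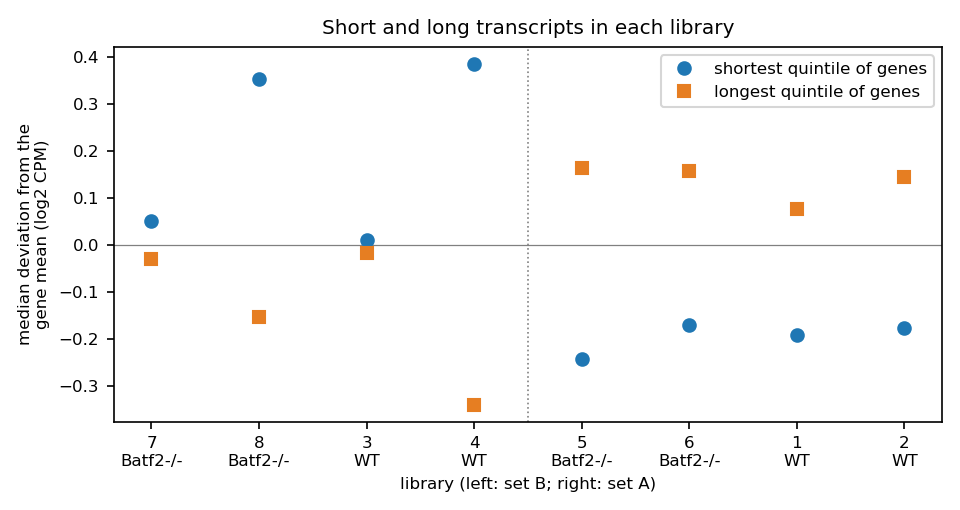
Median deviation in log2 CPM from the gene mean over the 8 libraries (y axis) for the shortest quintile of tested genes (circles) and the longest quintile (squares) in each library (x axis). Set B is left of the dotted line and set A right of it. Short transcripts reach 0.35 and 0.39 in libraries 8 and 4 and lie between -0.24 and -0.17 in set A.

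The gradient ran through lists of unrelated function. Of 43 lists with 10 or more tested members, 40 had a negative rank correlation between difference and length. Among 47 type I interferon-stimulated genes the rank correlation was -0.74, and members shorter than the all-gene median length had a median difference of 0.27 and longer members one of -0.22. Among 38 actin cytoskeleton genes the rank correlation was -0.67, with 0.20 for shorter and -0.33 for longer members. Tmsb4x, the short transcript of the actin-binding peptide thymosin beta 4, had 4436, 6548, 4713 and 7037 CPM in libraries 7, 8, 3 and 4 and 3256 to 3811 CPM in set A, a log2 difference of 0.70. Wasf2, the long transcript of the actin regulator WAVE2, had 80.2, 63.5, 82.6 and 54.6 CPM in set B and 98.4 to 116 CPM in set A, a difference of -0.60. In the ribosomal list itself, where 75 members fell among the shorter and 2 among the longer genes, the rank correlation was -0.15.

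A fit in which each library's trend with length and GC was removed as an offset, added after the data were seen, counted 135 genes as higher (1.22%) and 102 as lower (0.921%) of 11070. Medians were 0.21 for the ribosomal list, 0.24 for the proteasome and 0.14 for nuclear respiratory chain subunits. The mitochondrially encoded list moved the other way, to -1.22, with 11 of 13 members counted as lower, and 10 of its members were among the 12 largest negative differences of that fit. These transcripts are shorter than most and low in GC (median 37.1%, against 50.3% over all tested genes), so their lower values went against both gradients. The larger size comes from the offset, which took out length and GC together. With it mt-Nd3 went from -0.07 to -1.02, mt-Co2 from -0.37 to -1.13 and mt-Co3 from 0.21 to -0.58. It is a shift of the fit and not a larger measured difference. Genes highest in that fit included Gins2 (0.998), a subunit of the replicative helicase complex, Rps15a (0.94), Naca (0.90), a ribosome-associated chaperone subunit, and Pex7 (0.93), a peroxisomal import receptor, with assigned lengths of 3900, 5130, 3815 and 4573 bases. Such lengths are medians over annotated transcripts, and whether they match the transcripts expressed was not tested. The part of length and GC in the split was not tested beyond this.

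The balance of higher and lower genes depended on the scaling. With TMM factors 82.3% of the counted genes were higher in set B. With total counts alone 444 were higher and 377 lower, 54.1% higher, and the median over all genes was -0.10 in place of -0.04. Median-of-ratios and upper-quartile factors gave 84.6% and 85.7% higher.

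Genes of macrophage activation were counted at shares near or below those of all genes, of which 6.71% were counted as higher and 1.44% as lower. The rule pools both genotypes, so a genotype difference can make the sets overlap and keep a gene from being counted. Among the 25 classical activation effectors, 5 passed as higher and 3 as lower in Batf2-/- with the set term. A low count therefore does not show that such genes were alike in both sets. Of 25 classical activation effectors 2 were counted as higher and none as lower, a share near that of all genes, with a median of -0.05, and of 47 type I interferon-stimulated genes 1 was counted, with a median of -0.05. Of 10 CC and 9 CXC chemokines none was counted. Il1b, the gene of interleukin 1 beta, had 343, 252, 112 and 135 CPM in libraries 7, 8, 3 and 4 of set B, and 346, 263, 121 and 81.5 CPM in libraries 5, 6, 1 and 2 of set A, a log2 difference of 0.13. Its levels grouped by genotype and the sets overlapped throughout. Cxcl10, an interferon-induced chemokine, differed by -0.10, Tnf by -0.13 and Il6 by 0.36, all with overlap.

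Nos2 (GRCm38 chromosome 11, 78920787 to 78960254, plus strand), the inducible nitric oxide synthase, varied along both axes. It had 609.7, 481, 1170 and 837 CPM in libraries 7, 8, 3 and 4, against 875, 894, 1369 and 1596 CPM in libraries 5, 6, 1 and 2. Within each genotype both libraries of set B were below both of set A, by a log2 difference of -0.70 in Batf2-/- and -0.56 in WT, and over both genotypes together the sets overlapped. Its spliced length of 3810.5 bases is above the all-gene median. The 2 counted effectors were Cd86, a costimulatory ligand for T cells, with 55.5, 58.9, 60.05 and 69.0 CPM in set B and 28.8, 36.0, 42.8 and 40.9 CPM in set A, and Il18, with a difference of 0.71. For Il18 the difference was -0.03 with the length and GC offset, while for Cd86 it was 0.54.

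Other innate lists varied. Set against 6.71% of all genes, the NF-kB, inflammasome and NADPH oxidase lists held somewhat larger shares of genes counted as higher, on 3 members each. In the NF-kB list 3 of 29 were higher, all of them near-identical Bcl2a1 copies and hence uncertain, and the list median was -0.18. None of 31 immediate-early genes, 28 toll-like receptor sensing genes, 22 integrins and adhesion genes or 15 genes of MHC class II presentation was counted, with medians of -0.26, -0.28, -0.34 and 0.05. All 8 tested colony-stimulating factor and receptor genes had a negative difference and none was counted, with a median of -0.46 (-0.26 without libraries 4 and 8). Csf2rb, the shared beta chain of the GM-CSF receptor, had 900.3, 684, 573 and 405 CPM in libraries 7, 8, 3 and 4, against 1176, 1074, 689 and 678 CPM in libraries 5, 6, 1 and 2. Within each genotype both libraries of set B were below both of set A, and the log2 difference was -0.49. In the NADPH oxidase and antimicrobial list 3 of 16 were higher, among them Cyba (0.74), the small membrane subunit of the oxidase, and Lyz2 (0.67), the macrophage lysozyme. In the inflammasome list 3 of 22 were higher, with a median of 0.06, among them Pycard (0.74), which encodes the adaptor ASC. The difference was 0.66 for Ifi47, an interferon-inducible GTPase. Psme2, an interferon-induced activator of the proteasome, differed by 0.70.

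Metabolic and stress programs beyond the respiratory chain held members counted in either direction. Their counts stand beside 6.71% of all genes counted as higher and 1.44% as lower. In the NRF2 and redox list 5 of 29 were higher: Nqo1 (a quinone reductase, 0.70), Blvrb (a biliverdin reductase, 0.66), Esd (0.65) and the peroxidase Prdx1 (0.64) were the 4 with the largest differences, and the list median was 0.02. Fatty acid synthesis genes had a median of -0.44, with Scd1 the 1 counted of 14. Hk1, a hexokinase, differed by -0.60 and Higd1a, a hypoxia-induced mitochondrial protein, by 0.59 in a glycolysis and HIF-1 list with a median of -0.17. Hspe1, the mitochondrial co-chaperonin, was higher by 0.84. Of 39 lysosomal hydrolase genes 1 was higher (Ctsh, a cathepsin, 0.60) and 1 lower (Grn, progranulin, -0.60). Of 25 mitotic genes 5 were higher, and the list median was 0.08. Birc5 (survivin) was largest at 0.96, on levels of 0.361 to 0.620 CPM in set B and 0.186 to 0.359 CPM in set A. Cks2 and Stmn1 followed among those named, at 0.64 and 0.62, and Cks2 stood at -0.02 with the offset. Pcna, the replication clamp, was higher by 0.65.

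Genes of alveolar macrophage identity were expressed in both sets. The summed level of 42 identity genes was 44059 to 56016 CPM in set B and 38577 to 47060 CPM in set A. This sum includes Gpnmb and Spp1, which are also on the list of interstitial and monocyte-derived macrophages, so it does not separate these types. Among 40 tested members 2 were higher and 1 lower, against 6.71% and 1.44% of all genes, with a median of -0.05. The members named next are only some of the list and were chosen after their values were seen. Siglecf, the sialic acid receptor used to define these cells, had 61.4, 65.6, 79.3 and 73.4 CPM in set B and 78.4, 54.3, 85.6 and 72.6 CPM in set A, with overlap. The integrin gene Itgax differed by -0.50 with no overlap, short of the limit, and Pparg, the nuclear receptor needed for alveolar macrophages, by -0.17.

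Markers of other cell types ranged from near 0 to levels carried by genes that macrophages also express. Erythroid markers summed to 0.0277 to 0.225 CPM in set B and 0.0249 to 0.552 CPM in set A, and those of other granulocytes, mast cells and platelets to 0.582 to 1.70 CPM in set B and 0.505 to 2.34 CPM in set A. Neutrophil markers summed to 24.6 to 56.3 CPM in set B and 21.0 to 37.4 CPM in set A, led by S100a8 at a mean of 24.2 CPM. Of these markers 8 of 22, among them Ly6g and Mpo, had 0 counts in all libraries. B and plasma cell markers summed to 77.04 to 106 CPM in set B and 99.0 to 123 CPM in set A, nearly all of it Cd22. T and NK cell markers summed to 146 to 229 CPM in set B and 129 to 245 CPM in set A, led by Il7r and Cd2. By genotype these sums were 191 to 245 CPM in Batf2-/- libraries and 129 to 159 CPM in WT libraries.

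Dendritic cell markers summed to 2111 to 2316 CPM in set B and 2179 to 2312 CPM in set A, most of it from Irf8, an interferon-induced transcription factor, with 1 of 12 tested members counted as lower. Cd209a and Siglech of that list had 0 counts. Interstitial and monocyte-derived macrophage markers summed to 5725 to 6887 CPM in set B and 6862 to 7020 CPM in set A, with 1 of 19 counted as higher. Gpnmb and Spp1, its most abundant members, are also on the alveolar macrophage list. Lung epithelial markers summed to 307 to 483 CPM in set B and 309 to 500.5 CPM in set A, led by Pdpn and Cav1, with 1 of 14 tested members counted as higher.

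Endothelial and stromal markers had a negative median along the split. They summed to 39.6 to 81.1 CPM in set B and 56.8 to 92.6 CPM in set A. None of 9 tested members was counted, but 7 of 9 had a negative difference and the median was -0.51, against -0.04 over all genes. The median was -0.17 without libraries 4 and 8 and -0.11 with the length and GC offset, and the median spliced length of these 9 genes was 5318.5 bases. Vwf and Col5a3 led the list, at means of 29.9 and 17.8 CPM over the libraries. Cdh5 of the endothelium had 0.522 to 3.24 CPM in Batf2-/- libraries and 0.124 to 0.462 CPM in WT libraries. Tie1, Cldn5 and Emcn of the endothelium had 0 counts in all libraries. With the set term 3 of the 9 (Cdh5, Col5a3 and Pdgfrb) passed as higher in Batf2-/- and none as lower, against 1.78% and 1.15% of all genes. Cdh5 did not pass without the term (edgeR adjusted p = 0.112). The counting rule pools both genotypes, so such differences can keep members from being counted. The part of endothelial and stromal cells in the split was not tested.

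Both genotypes showed the split, which the choice of sides on all 8 libraries favours, so the agreement is a description and no independent support. Across 11083 genes the difference of set B over set A in Batf2-/- libraries (7 and 8 over 5 and 6) and that in WT libraries (3 and 4 over 1 and 2) had a Pearson correlation of 0.74 and a Spearman correlation of 0.84, and 88.0% of genes had the same sign. Genes are not independent replicates. With the length and GC offset Pearson's correlation was 0.59. Rpl41 differed by 0.87 in Batf2-/- and 0.89 in WT, Cox7b by 0.93 and 0.86, and the mt-Atp8 transcript by -1.18 and -1.23.

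**Figure D5:**
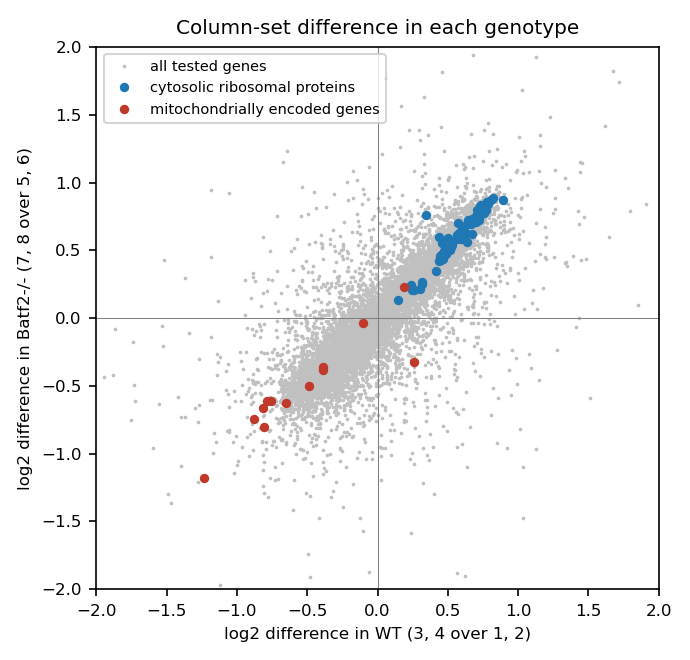
Log2 difference of set B over set A for each tested gene in Batf2-/- (y axis, libraries 7 and 8 over 5 and 6) against WT (x axis, libraries 3 and 4 over 1 and 2). Blue points are ribosomal protein genes and red points mitochondrially encoded genes, and 19 genes lie outside the plotted range of 2 on either side. Ribosomal protein genes lie upper right and most mitochondrial genes lower left.

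Whether the genotype difference itself depended on the set was examined with an interaction term. The interaction is the difference of set B over set A in Batf2-/- minus that in WT, and sides chosen so that these differences align bring it toward 0. Its p-values are therefore not independent of the choice and are given as a description. By edgeR's quasi-likelihood test with Benjamini-Hochberg adjustment over 11083 genes, 0 genes passed an adjusted p of 0.05, and 38 had an unadjusted p under 0.05 (0.343% of genes). DESeq2 also gave 0. That 0.343% is a smaller share than evenly spread p-values would give. Each genotype and set held 1 pool with Xist and 1 with Eif2s3y, and sex was not a term of the fit. The spread behind these p-values therefore includes any difference between such pools. With that choice, that spread and 2 libraries per genotype and set, the count does not show that the genotypes act alike in both sets. The smallest p was that of Lars2 (unadjusted p = 0.00741, edgeR adjusted p = 1.00). It had 474, 370.5, 168 and 146 CPM in libraries 7, 8, 3 and 4, against 642, 624, 466 and 375 CPM in libraries 5, 6, 1 and 2.

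Within the sets, 31 genes passed for Batf2-/- over WT in set B (11 higher and 20 lower) and 39 in set A (18 higher and 21 lower) by the same test. These p-values too rest on the spread within sets that were chosen from the data, and that spread includes any difference by sex of the pools. At an unadjusted p under 0.05 there were 644 genes in set B and 697 in set A. The count in set B was 1 without libraries 4 and 8, which leaves 1 library per genotype there whose spread is borrowed from set A. The count in set A was 4, 5, 15 and 19 without libraries 1, 5, 2 and 6, and 62, 67, 90 and 93 without libraries 3, 4, 7 and 8. In set B it was 15 without library 4, 20 without library 1, 2 or 3, and 21 to 33 without the others. Clec9a, a C-type lectin of dendritic cells, had a log2 difference of Batf2-/- over WT of -3.57 in set B and -3.01 in set A (edgeR adjusted p = 0.00472 and 0.00609). Slc43a2, a transporter of neutral amino acids, had 1.68 and 1.70 (edgeR adjusted p = 0.0101 and 0.00735).

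More genes passed between the genotypes when the split was a term of the fit, and that gain was in part built in. The set was chosen from the first principal component of the same values, so it had to lower the residual spread, and p-values with the term make no allowance for the choice. With the set as a term, 197 genes were higher (1.78%) and 128 lower (1.15%) in Batf2-/- by edgeR's quasi-likelihood test with Benjamini-Hochberg adjustment. Without it, 61 were higher and 62 lower, and all 123 of those were among the 325. The median standard error of the genotype log2 difference over genes was 0.122 with the term and 0.177 without it. Of the 325 genes only Gpr35 was also counted along the split, where 6.71% of all genes were counted as higher and 1.44% as lower. The counting rule pools both genotypes, so a genotype difference can itself make the sets overlap. The rule thus held that count low, and it does not show that genotype and split involve separate genes.

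Several genes with known macrophage roles passed with the set term and not without it. Their calls depend on a term picked from the same values, and their differences are given here without being called changes. Nos2 had a log2 difference of Batf2-/- over WT of -0.81 ± 0.13 (SE), with 715 ± 203 CPM in Batf2-/- and 1243 ± 322 CPM in WT (SD, n = 4 each; edgeR adjusted p = 0.00748, and 0.270 without the set term). It was lower in Batf2-/- within each set. Abca1, the cholesterol efflux transporter, had 18.9, 16.7, 33.6 and 29.6 CPM in Batf2-/- libraries 7, 8, 5 and 6, against 7.77, 7.18, 11.3 and 14.2 CPM in WT libraries 3, 4, 1 and 2. Its difference was 1.28 ± 0.11 (edgeR adjusted p = 1.82e-04, and 0.0823 without the term).

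Srebf1, which encodes the lipogenic factor SREBP1, differed by 1.05 ± 0.12 (edgeR adjusted p = 0.00145, and 0.0581 without). Vcl, the focal adhesion protein vinculin, differed by 0.91 ± 0.11 (edgeR adjusted p = 0.00160, and 0.0732 without). Prdm1, the repressor BLIMP1, differed by 0.70 ± 0.10 (edgeR adjusted p = 0.00541, and 0.232 without). Along the split each of these 5 genes had a negative log2 difference in both genotypes, and over all libraries it lay between -0.80 and -0.48. Csf2rb differed by 0.71 ± 0.13 (edgeR adjusted p = 0.0156, and 0.247 without the term), and its call was lost without library 1, 2 or 5 (adjusted p = 0.0638 to 0.0659). Gpr35 differed by 0.65 ± 0.14 (edgeR adjusted p = 0.0359, and 0.572 without the term), a call lost without any of libraries 1, 2, 4, 5, 7 and 8 (0.0590 to 0.137) and without libraries 4 and 8 together (0.104). Lars2 differed by 1.01 ± 0.17 (edgeR adjusted p = 0.0129, and 0.547 without the term), a call lost without libraries 4 and 8 (0.125) and with table position as a factor in place of the set (0.0751).

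Genes with the smallest adjusted p had large genotype differences and small ones along the split. Rnd1, a small GTPase, had 3.78, 3.39, 5.01 and 4.36 CPM in Batf2-/- libraries 7, 8, 5 and 6, against 0.305, 0.279, 0.308 and 0.479 CPM in WT libraries 3, 4, 1 and 2, and rose by 3.58 ± 0.18 (edgeR adjusted p = 9.87e-06). The predicted gene Gm8797 rose by 4.43 ± 0.22 and Acap1, a regulator of endosomal recycling, by 2.81 ± 0.21. Zranb3, a DNA replication fork remodeller, fell by 1.29 ± 0.08 and Mab21l3 fell by 2.13 ± 0.14. Gcnt1, a glycosyltransferase, fell by 1.39 ± 0.10 and Nadk2, the mitochondrial NAD kinase, fell by 1.55 ± 0.12. Xrcc5 (the DNA repair protein Ku80) rose by 1.77 ± 0.13. Their edgeR adjusted p with Benjamini-Hochberg adjustment were 1.13e-04 or less with the term and 0.00208 or less without it, so these calls did not depend on it, and their differences along the split lay between -0.39 and 0.25.

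For Tnf and Il6 the call depended on the term used. Tnf had 3276, 2520, 2927 and 3871 CPM in Batf2-/- libraries 7, 8, 5 and 6, against 4389, 3908, 4072 and 4454 CPM in WT libraries 3, 4, 1 and 2, so that every Batf2-/- library was below every WT library. Its log2 difference was -0.42 ± 0.12 (edgeR adjusted p = 0.126 with the set term and 0.357 without it). Il6 had 97.7, 93.0, 90.6 and 62.0 CPM in the same Batf2-/- libraries, against 117, 158, 129 and 80.1 CPM in the WT ones, with overlap, and a difference of -0.49 ± 0.17 (edgeR adjusted p = 0.207, and 0.568 without the term). With table position as a factor both passed (edgeR adjusted p = 0.00310 for Tnf and 0.00568 for Il6), and DESeq2 with the set term called Tnf (adjusted p = 0.0201). With no filter on low counts both passed too (edgeR adjusted p = 0.00315 and 1.76e-04). Table position is the order of columns within each genotype, which no label ties to a shared source.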

How the data were processed

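The authors deposited raw total counts of reads per gene, not normalised, per the file header, for 8 libraries in columns headed by genotype. The build was GRCm38 (mm10) per the submitters' processing notes. The labels' protocols name column purification of RNA and a TruSeq stranded kit for mRNA. How reads were aligned and counted, and with which strand setting and annotation, is not given in the sources used here: overlapping, antisense and near-identical genes are therefore uncertain. Of 48709 genes, 48349 identifiers matched the reference annotation of GRCm38.

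The edgeR 4.0.16 quasi-likelihood fit (R 4.3.3, limma 3.58.1, TMM factors, default expression filter, robust) kept 11083 genes, with genotype and set as terms. A second fit used the 4 combinations of genotype and set for the interaction and the contrasts within sets. P-values were adjusted over all tested genes by Benjamini-Hochberg, with a threshold of 0.05. CPM are counts scaled by TMM factors; log2 CPM used a prior count of 2. A gene was counted along the split at 1.5-fold or more with no overlap of the sets. Alternatives were DESeq2 1.42.0, other scalings and filters, table position as a factor, and libraries left out. Length and GC came from the median of each gene's annotated basic transcripts. The offset used natural splines with 5 degrees of freedom and a robust fit (MASS). It was added after seeing the data, first with the longest transcript and then with the median, after genes with a long unused isoform were seen to lead. The fits were also run on simulated counts, which held no trend with length, no difference by sex and no split picked from the values. That run therefore cannot show how these features affect the p-values here.

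The split, the 54 gene lists and the genes named were chosen with earlier results of these data known. The rule for named genes was the 12 largest differences in each direction (mean log2 CPM no lower than 2), up to 4 members of each list, the 6 smallest adjusted p in each direction and a fixed set with Batf2, Xist, Nos2, Tnf, Il6, Il1b and Cxcl10. Those printed were picked among them after their values were seen. Outside the rule, and also chosen after their values were seen, are Rpl37, Rps12, Rps2, Rpl4, Sdha, Uqcrc1, Atp5d, Psmd2, Psmd3, the uncounted mitochondrial genes, Itgax, Siglecf, Pparg, Pycard, Abca1, Srebf1, Vcl and Prdm1. The libraries are pools with no stated shared source, so p-values measure the spread between pools.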

Additional observations from a re-analysis of the deposited data

Results flagged for a closer look

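Of 290 groups of 4 libraries examined for a sample far from the others, 5 held one (1.72%), and all 5 were WT groups. The limit used flags about 1 in 20 groups by chance. That rate need not hold here, since many of the genes were named for a difference between the sets. In WT library 4, Afp stood at 30.8 CPM, with 12.7 to 15.4 CPM in the other WT libraries, and Ccl6, a chemokine gene, at 245 CPM, with 179.8 to 182 CPM in the others. Cxcl10 was lowest in WT library 4, at 264 CPM, with 283 to 285 CPM in the others. In WT library 2, Rnd1 stood at 0.479 CPM with 0.279 to 0.308 CPM in the others, and Gm6685, a predicted gene, at 0.0266 CPM with 0 in the others. The Gm6685 flag thus rests on very few reads. Library 4 also had the highest score on the first principal component. The part of that library's depth or composition in these values was not tested.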

How the results depend on the processing

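The counts along the split depended on libraries and scaling. Genes counted as higher (744) and lower (160) in set B were 118 and 84 without libraries 4 and 8, 444 and 377 with total counts only, 24 and 9 at 2-fold, 135 and 102 with the length and GC offset, and 167 and 72 with the offset from the longest transcript. Lower genes were 441 in Batf2-/- alone, 379 in WT alone, 271 with no filter and 102 at a mean CPM of at least 4. Leaving out 1 library gave 382 (without library 8) to 1376 (without library 3) higher genes and 60 (without library 4) to 418 (without library 7) lower genes. Lists with a median of at least 0.5 in size, a limit set after medians were seen, numbered 3 to 7 with 1 library left out, 0 without libraries 4 and 8 and 1 with the offset. The differences of Il18 and Cks2 turned to -0.0275 and -0.0227 with the offset.

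Genotype counts with the set term (197 higher, 128 lower) were 61 and 62 without that term, 387 and 235 with DESeq2, 296 and 227 with the offset, 680 and 285 with no filter and 772 and 618 with table position as a factor. They ranged over 90 to 256 and 74 to 130 with 1 library left out. The interaction count was 0 with each library left out and 10 with no filter. Counts within set A were 91 with the offset, 23 at a mean CPM of at least 4, 413 with no filter, 85 without libraries 4 and 8, and 4 to 93 with 1 library left out. Within set B they were 74 with the offset, 306 with no filter, 1 without libraries 4 and 8, and 15 to 33 with 1 library left out. The cause was not tested.

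No paired analysis was possible because the count columns carry no replicate number from the labels. The fit with table position as a factor groups columns by their order within each genotype, as a setting and not as a labelled pairing. Columns at the same position were alike in sex by Xist and Eif2s3y, so that fit also took up sex, which no other fit held as a term. Their ribosomal protein shares were 2.91% and 2.86% (libraries 1 and 5), 3.01% and 2.99% (2 and 6), 3.53% and 3.70% (3 and 7), and 4.84% and 4.90% (4 and 8). Whether such columns share a source was not tested.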
